A study of Mus musculus with 12 samples.

Results

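Heat shock and unfolded protein response genes were examined in livers of adrenalectomized mice 6 h after dexamethasone, a synthetic glucocorticoid. The gene list held 35 members, chosen by name with earlier results of these data known. Of these members 34 were matched to probes and tested among 19339 genes. Hspa1b, a near-identical copy of Hspa1a, was not analysed here, and probes of Hspa1a may also bind its transcripts. All 34 passed the filter on dim probes with a signal well above background on all 12 arrays. They comprised 11 cytosolic and nuclear chaperones and co-chaperones, the heat shock factor gene Hsf1, 3 mitochondrial chaperones, 13 endoplasmic reticulum (ER) chaperones and folding enzymes, 3 genes of ER associated degradation, and 3 genes of the unfolded protein response sensors and factor.

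Chaperones bind unfolded proteins and help them reach or keep their folded state. In the cytosol their genes are switched on by the heat shock factor HSF1 when unfolded protein accumulates. In the ER, the sensors ATF6, IRE1 (encoded by Ern1) and PERK detect unfolded secretory protein and raise the transcription of ER chaperones and degradation factors, a programme called the unfolded protein response. The liver secretes large amounts of plasma protein and carries a high load of ER folding. Cytosolic HSP90 and HSP70 also hold the glucocorticoid receptor in its ligand-binding state.

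The 4 groups were males given dexamethasone, males given vehicle, females given dexamethasone and females given vehicle, with 3 animals each. All were C57BL/6 mice of 11 weeks whose adrenal glands had been removed, which takes away most endogenous glucocorticoid in every group, controls included. Females were in diestrous 1. Dexamethasone was injected intraperitoneally at 1 mg per kg, and vehicle was phosphate buffered saline. Each animal's liver RNA was hybridised to its own single-colour array, so n counts animals. The 75th percentile of processed intensity ranged from 578.2 to 1251 between arrays, and 65.7 to 72.21 percent of spots were well above background. A level below is the signal divided by that percentile of the same array, and levels are compared between groups for 1 gene at a time, except for the sums over marker lists.

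The glucocorticoid targets Fkbp5, Tsc22d3 and Tat rose in both sexes, Fkbp5 by 4.45 ± 0.43 in males and 3.86 ± 0.43 in females (log2 ± SE). Per1, the clock gene, did not pass (log2 fold change 1.28 in males and 1.24 in females). The summed level of 6 hepatocyte markers, all detected, was 1630 to 1900 in dexamethasone males against 990 to 1120 in vehicle males, and 1350 to 1590 in dexamethasone females against 956 to 1060 in vehicle females. Such a sum is carried by its brightest probes. The 6 hepatocyte markers were Alb, Apoa1, Apob, Ttr, Tat and Cps1. Tat is also 1 of the glucocorticoid targets above, so this list is not independent of the treatment. Of the 6 markers 4 rose in males and 3 in females, while Ttr had log2 changes of -0.39 and -0.59 that did not pass. The 6 Kupffer cell and macrophage markers summed to 35.8 to 48.4 in dexamethasone males against 51.5 to 87.0 in vehicle males, and 53.4 to 105 in dexamethasone females against 82.9 to 126 in vehicle females, with 1 of 6 called lower in males and 0 in females. The 5 stellate cell and fibroblast markers summed to 33 to 33.8 in dexamethasone males against 37 to 42.9 in vehicle males (3 of 5 lower), and to 46.7 to 52.8 in dexamethasone females against 41.6 to 47.4 in vehicle females (0 called). Only 1 of these 5 markers had a positive sign in females (median log2 change -0.154), so the female sums do not show a rise across the list. The 5 T and NK cell markers summed to 0.507 to 0.615 in dexamethasone males against 0.659 to 0.862 in vehicle males (3 of 5 lower), and to 0.73 to 0.892 in dexamethasone females against 0.787 to 1.37 in vehicle females (0 called). In whole liver a smaller number of cells of a type and less RNA per cell cannot be told apart, and the part of these shifts in the results below was not tested. All 3 vehicle males lay at position 1 of their slides, whereas dexamethasone males lay at positions 2 and 3, so position and treatment cannot be told apart in males.

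The sequences around the transcription start sites were searched for known elements. RefSeq promoters (GRCm38.p6), from 250 bases before to 50 bases after the start, were found for 28 of the 35 listed members. Those not found were Hspa8, Hsp90aa1, Hsp90ab1, Hsf1, Hspa9, Hyou1 and Atf6. The ER stress element, CCAAT and CCACG 9 bases apart, was searched on both strands and occurred in 8 of these 28 members (28.6 percent), against 37 of 27025 genes in the table (0.137 percent). They were Hspa5, Hsp90b1, Dnajc3, Calr, Canx, Pdia6, Creld2 and Derl3. Its shorter form, ATTGG and CCACG 1 base apart, was found in Dnajb11 and Herpud1, and in 12 genes of the table (0.044 percent). The heat shock element GAANNTTC was in 9 of 28 members (32.1 percent), against 9.04 percent of all genes: Hspa1a, Hspa1b, Hspb1, Hspb8, Hsph1, Bag3, Dnaja1, Hspd1 and Hspe1. Its other phase, TTCNNGAA, overlaps it at some sites and was in Hsph1, Hspd1 and Hspe1 (10.7 percent of members, 9.6 percent of genes). Hspd1 and Hspe1 hold the same sites in overlapping windows, and the near-identical windows of Hspa1a and Hspa1b hold the same site. The members with a heat shock element are therefore not all separate promoters. Neither the unfolded protein response element TGACGTGG (0.714 percent of genes) nor the glucocorticoid response element, GNACA and TGTNC 3 bases apart (0.537 percent), was found in a member, which says only that these letters are absent from this window.

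The 6 promoters printed here are those of 4 members that passed a test below or lay just outside it in the ER (Dnajc3, Herpud1, Hsp90b1, Hspa5), of Hspa1a, and of Hspe1, whose window overlaps that of Hspd1 on the opposite strand. Capitals mark the motif matches, ER stress elements in the first 4 and heat shock elements in the last 2. The windows are chr14:118937682-118937981 (Dnajc3, plus strand), chr8:94386179-94386478 (Herpud1, plus), chr10:86705395-86705694 (Hsp90b1, minus), chr2:34771840-34772139 (Hspa5, plus), chr17:34972107-34972406 (Hspa1a, minus) and chr1:55087898-55088197 (Hspe1, plus), each printed 5′ to 3′ in the direction of the gene.
Dnajc3: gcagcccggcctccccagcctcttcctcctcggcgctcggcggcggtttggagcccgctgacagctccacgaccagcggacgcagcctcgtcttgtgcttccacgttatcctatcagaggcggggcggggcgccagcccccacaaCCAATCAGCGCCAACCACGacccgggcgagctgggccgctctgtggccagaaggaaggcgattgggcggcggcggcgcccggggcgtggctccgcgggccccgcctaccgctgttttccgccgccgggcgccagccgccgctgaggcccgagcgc
Herpud1: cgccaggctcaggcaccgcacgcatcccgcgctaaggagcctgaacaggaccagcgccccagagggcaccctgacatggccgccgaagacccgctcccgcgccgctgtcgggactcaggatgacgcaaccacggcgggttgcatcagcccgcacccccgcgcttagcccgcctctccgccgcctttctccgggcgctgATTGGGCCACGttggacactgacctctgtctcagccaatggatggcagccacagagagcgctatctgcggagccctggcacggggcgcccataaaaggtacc
Hsp90b1: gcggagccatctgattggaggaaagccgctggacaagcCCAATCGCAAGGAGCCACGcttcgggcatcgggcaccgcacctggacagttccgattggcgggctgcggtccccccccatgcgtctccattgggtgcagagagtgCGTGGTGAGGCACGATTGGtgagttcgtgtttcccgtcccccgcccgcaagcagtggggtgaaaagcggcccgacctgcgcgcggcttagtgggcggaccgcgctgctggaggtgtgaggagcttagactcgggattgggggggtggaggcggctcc
Hspa5: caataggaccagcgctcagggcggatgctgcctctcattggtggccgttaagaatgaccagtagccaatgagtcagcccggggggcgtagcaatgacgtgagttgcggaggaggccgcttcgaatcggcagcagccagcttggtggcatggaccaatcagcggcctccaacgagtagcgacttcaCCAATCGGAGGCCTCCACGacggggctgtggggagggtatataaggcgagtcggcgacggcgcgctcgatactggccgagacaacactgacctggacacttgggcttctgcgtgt
Hspa1a: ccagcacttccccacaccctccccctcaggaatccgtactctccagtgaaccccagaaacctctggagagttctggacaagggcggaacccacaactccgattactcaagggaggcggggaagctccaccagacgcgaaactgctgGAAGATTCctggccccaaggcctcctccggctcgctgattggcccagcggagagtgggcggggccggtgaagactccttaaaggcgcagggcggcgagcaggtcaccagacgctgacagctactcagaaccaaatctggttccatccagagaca
Hspe1: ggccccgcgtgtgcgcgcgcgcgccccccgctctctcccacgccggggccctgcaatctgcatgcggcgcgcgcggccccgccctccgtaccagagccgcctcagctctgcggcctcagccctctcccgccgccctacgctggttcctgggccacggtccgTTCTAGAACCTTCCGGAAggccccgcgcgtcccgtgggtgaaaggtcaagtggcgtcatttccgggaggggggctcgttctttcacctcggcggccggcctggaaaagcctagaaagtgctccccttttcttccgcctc

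In males, 8 of the 34 members were higher after dexamethasone and 0 were lower past the threshold (limma, Benjamini-Hochberg adjusted p under 0.05 over 19339 genes). The 8 were Hspa1a and Bag3 in the cytosol, Hspa9 in mitochondria, Hsp90b1, Hyou1 and Dnajc3 in the ER, Herpud1 in ER associated degradation, and Atf6 among the sensors. Among all genes 10.4 percent were higher and 12.1 percent lower in the same comparison, so the share of members called higher was 23.5 percent beside 10.4, and of members called lower 0 of 34 beside 12.1. The list was chosen with earlier results of these data known, so the gap between these shares carries no test. At an unadjusted p under 0.05 the counts were 14 higher and 0 lower of 34, where 17.1 percent of all genes were higher and 18.3 percent lower. The median log2 fold change of the members was 0.28, against 0.01 for all genes, and 28 of 34 had a positive sign. These values are those of each gene's brightest probe. Of 19 members with over 1 probe tested, all probes had the same sign for 12 in males and for 13 in females. By class the medians were 0.25 for the cytosolic genes, 0.24 for the mitochondrial, 0.51 for the ER chaperones, 0.46 for ER associated degradation and 0.06 for the sensors. Quantile normalization of the arrays lowered the ER and mitochondrial medians to 0.26 and 0.09 and the cytosolic to 0.13. The plot of fold changes gives every member with its interval.

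**Figure D1:**
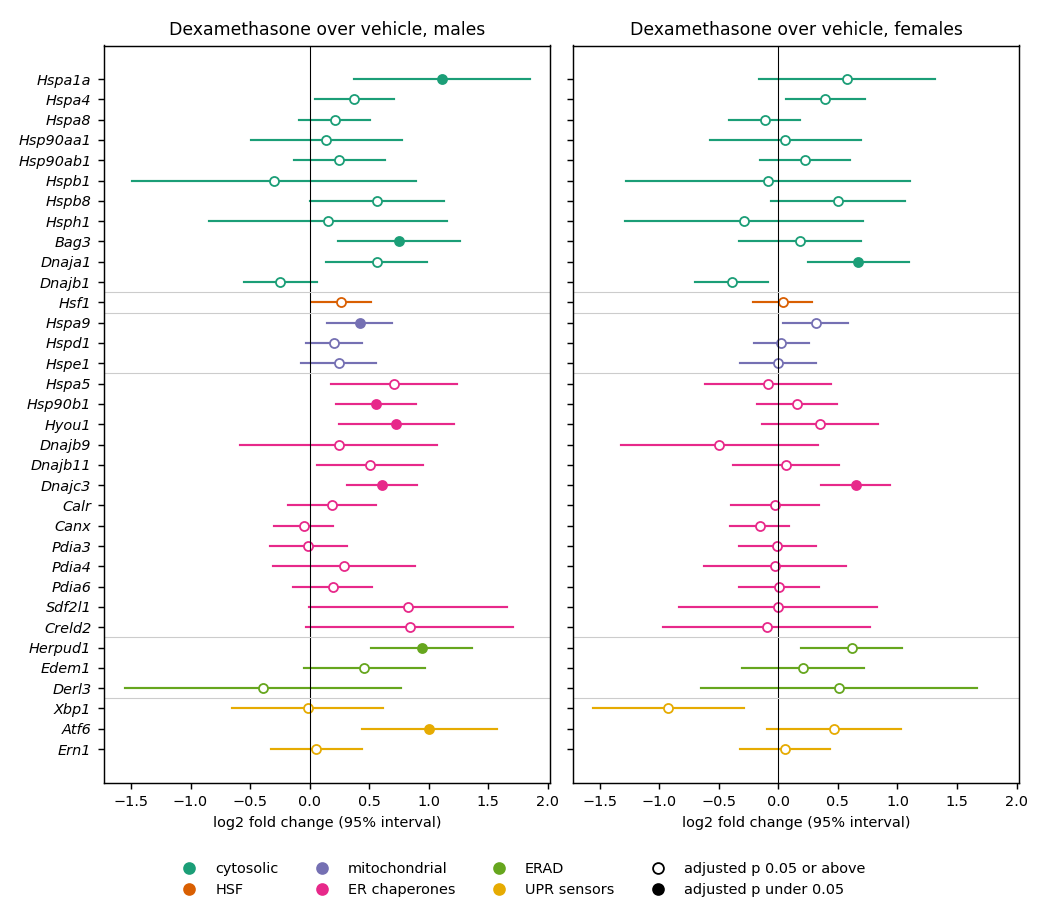
Log2 fold change of dexamethasone over vehicle (x axis) for 34 genes (y axis, grouped by class) in males, left, and females, right, with points for estimates and lines for 95% intervals from the limma fit. Filled points passed an adjusted p of 0.05, 8 in males and 2 in females, and most male estimates lie right of 0.

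In females 2 of the 34 members passed, both higher: Dnaja1 and Dnajc3. These 2 are 5.88 percent of the members, beside 6.79 percent of all genes called higher and 6.88 percent called lower. At an unadjusted p under 0.05 there were 5 higher and 2 lower of 34, where 14.1 percent of all genes were higher and 14.2 percent lower. The median over the members was 0.04 on the log2 scale (0.02 over all genes), and 20 of 34 had a positive sign. The ER chaperones had a median of -0.01 and the cytosolic genes 0.18. For the other classes the medians were 0.03 for the mitochondrial genes, 0.51 for ER associated degradation and 0.05 for the sensors. The difference between the sexes in the effect of dexamethasone passed for 0 members by limma, where 0 percent of all genes were called higher and 0.00517 percent (1 gene) lower. At an unadjusted p under 0.05 there were 2 members of 34, both with the lower effect in females, where 3.07 percent of all genes had the higher and 2.28 percent the lower effect in females. For Hspa5 the female effect was 0.80 ± 0.34 below the male effect (log2 ± SE, unadjusted p = 0.0383, adjusted p = 0.921). A smaller number of calls in females is therefore not shown to be a smaller effect.

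Among cytosolic genes, Hspa1a encodes the stress-inducible HSP70. Its level was 1.00, 2.01 and 1.06 in dexamethasone males against 0.787, 0.568 and 0.475 in vehicle males, and 0.566, 0.499 and 0.638 in dexamethasone females against 0.410, 0.243 and 0.542 in vehicle females. Every dexamethasone male lay above every vehicle male, while the female groups overlapped. The log2 change was 1.11 ± 0.34 in males (adjusted p = 0.0368) and 0.58 ± 0.34 in females (adjusted p = 0.294). The probes of Hspa1a did not agree: the 2 that overlap at the gene's 3′ end, at chr17:33066911-33066970 (used for the values above) and chr17:33066941-33067000 (mm7, as the array's files place them), gave 1.11 and 1.14, whereas those at chr17:33067263-33067322 and chr17:33068671-33068730 gave 0.11 and -0.47 (adjusted p = 0.879 and 0.447). The probe at -0.47 was dim, with a mean log2 level of -5.345 against -0.652 for the probe used, and was above background on 11 of 12 arrays. Averaging the probes gave 0.47 in males (adjusted p = 0.385), so the call rests on the 3′ probes. The run of 30 bases that the first pair shares, and the probe at chr17:33067263-33067322 that did not pass, show how differently placed these measurements are, all on the minus strand.
Hspa1a shared run: AGGGAAACTAAACTGTCTTTCAGTTACTTT
Hspa1a other probe: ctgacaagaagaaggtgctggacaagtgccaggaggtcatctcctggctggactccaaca

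Bag3, a co-chaperone that links HSP70 to small heat shock proteins, had levels of 6.94, 8.66 and 13.0 in dexamethasone males and 5.22, 5.87 and 5.33 in vehicle males, with no overlap. In females the levels were 6.66, 7.06 and 5.87 after dexamethasone and 4.35, 6.79 and 6.42 after vehicle, and the groups overlapped. The male change was 0.75 ± 0.23 (adjusted p = 0.04). Another probe of Bag3 gave 0.54 in males (adjusted p = 0.207), and the averaged probes 0.65 (adjusted p = 0.0831). Leaving out dexamethasone male 3, the highest, gave 0.50 (adjusted p = 0.125). Dnaja1, a DNAJ co-chaperone of HSP70, had levels of 50.8, 52.0 and 49.4 in dexamethasone females against 28.1, 40.6 and 28.3 in vehicle females, and 49.0, 35.6 and 39.8 in dexamethasone males against 22.6, 29.2 and 32.7 in vehicle males. Both sexes showed no overlap between treatments. Its change was 0.67 ± 0.19 in females (adjusted p = 0.0423) and 0.56 ± 0.19 in males (adjusted p = 0.0578). The other 2 probes of Dnaja1 gave 0.83 and 0.85 in males (adjusted p = 0.00881 and 0.0287) and 0.97 and 1.05 in females (adjusted p = 0.00728 and 0.0171), all past the threshold. The probe used spans an intron, its 60 bases lying between 40868736 and 40870191 of chromosome 4 (mm7, plus strand).
Dnaja1 probe: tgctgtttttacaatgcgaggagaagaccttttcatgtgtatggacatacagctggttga

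The remaining 8 cytosolic members did not pass in either sex by their brightest probes. Hspa4, an HSP110-family nucleotide exchange factor, had log2 changes of 0.37 ± 0.15 in males and 0.39 ± 0.15 in females by its brightest probe. Its 4 probes disagreed in sign, from -0.25 to 0.64 in males and -0.39 to 0.39 in females, and the one at 0.64 passed (adjusted p = 0.0431). That probe of Hspa4 was dim, with a mean log2 level of -4.465 against 2.601 for the brightest. Dnajb1, a major HSP40, had negative values in both, -0.24 ± 0.14 and -0.39 ± 0.14 (adjusted p = 0.243 and 0.0888). Hspa8, the constitutive HSP70, gave 0.21 in males and -0.12 in females, and -0.455 and -0.405 by its other probe. The array's files place both probes on chromosome 5 (mm7) whereas RefSeq places the gene on chromosome 9. Signal from a copy therefore cannot be told apart from the gene's own. The cytosolic HSP90 genes Hsp90aa1 and Hsp90ab1 gave 0.14 and 0.25 in males, and 0.06 and 0.22 in females. The other probe of Hsp90ab1 gave -0.226 in males and 0.136 in females. Among cytosolic members Hspb1 and Hsph1 varied most between animals of a group, with residual SDs of 0.749 and 0.624 on the log2 scale against a median of 0.262 over all genes, and their male changes were -0.30 ± 0.54 and 0.16 ± 0.45. Hspb8, a small heat shock protein, gave 0.57 ± 0.25 in males and 0.50 ± 0.25 in females. Its male value was 0.26 without dexamethasone male 3, at 42.6 beside 21.9 and 22.8. Hsf1, the factor itself, was at 18.8, 22.7 and 20.9 in dexamethasone males against 16.9, 17.0 and 17.7 in vehicle males, a change of 0.27 ± 0.11 that did not pass (adjusted p = 0.111).

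In mitochondria, Hspa9 (mortalin, the matrix HSP70, at 35314121 to 35314180 of chromosome 18 in mm7) was at 59.1, 70.0 and 65.9 in dexamethasone males against 46.1, 49.0 and 50.4 in vehicle males. In females it was at 52.7, 53.4 and 60.4 after dexamethasone and 45.1, 40.2 and 49.0 after vehicle. The groups did not overlap in either sex. The change was 0.42 ± 0.12 in males (adjusted p = 0.0325) and 0.31 ± 0.12 in females (adjusted p = 0.121). Its other probe gave 0.12 in males (adjusted p = 0.498), and the average of both 0.27 (adjusted p = 0.0998), so the male call rests on the brighter probe. Hspd1 and Hspe1, which form the HSP60 and HSP10 folding chamber and share a bidirectional promoter, gave 0.21 ± 0.11 and 0.24 ± 0.14 in males, and 0.03 ± 0.11 and 0.00 ± 0.14 in females, none past the threshold. The other probe of Hspd1 gave -0.058 in males and -0.127 in females. Hspd1 was among the steadiest members, with a residual SD of 0.0746.

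Among the ER chaperones, Hspa5 encodes BiP, the HSP70 of the ER that also restrains the sensors. It was at 92.2, 126 and 169 in dexamethasone males against 74.9, 84.4 and 71.4 in vehicle males, without overlap, and the change of 0.71 ± 0.24 just missed the threshold (adjusted p = 0.0564). In females it was at 92.7, 81.5 and 88.0 after dexamethasone and 73.5, 85.2 and 128 after vehicle, overlapping, with a change of -0.09 ± 0.24. Hsp90b1, the ER HSP90 also called GRP94, was at 123, 163 and 173 in dexamethasone males against 94.9, 112 and 102 in vehicle males (0.56 ± 0.15, adjusted p = 0.0241). Its levels in females were 126, 135 and 126 after dexamethasone and 104, 114 and 131 after vehicle (0.16 ± 0.15, adjusted p = 0.562). Quantile normalization gave 0.26 for Hsp90b1 in males (adjusted p = 0.276). The other probe of Hsp90b1 gave 0.48 in males (adjusted p = 0.0644). Hyou1, a large HSP70-like nucleotide exchange factor for BiP, was at 39.96, 40.64 and 49.8 in dexamethasone males against 23.9, 31.2 and 23.9 in vehicle males, with no overlap (0.73 ± 0.22, adjusted p = 0.0367). Its other probe, dimmer at a mean log2 level of -3.389 against 5.017, gave 1.23 in males (adjusted p = 0.223), and the averaged probes 0.98 (adjusted p = 0.0609). In females Hyou1 was at 31.11, 35.03 and 40.01 after dexamethasone and 19.5, 35.2 and 30.7 after vehicle, overlapping (0.35 ± 0.22).

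Dnajc3, a DNAJ co-chaperone of BiP also known to inhibit the kinase PERK, passed in both sexes. Its level was 16.4, 16.3 and 19.9 in dexamethasone males against 10.9, 12.2 and 11.2 in vehicle males, and 17.8, 19.4 and 20.2 in dexamethasone females against 10.8, 12.4 and 13.6 in vehicle females. No dexamethasone animal overlapped with a vehicle animal of its sex. The change was 0.61 ± 0.13 in males (adjusted p = 0.00861) and 0.65 ± 0.13 in females (adjusted p = 0.0106), and the difference between sexes was 0.04 ± 0.19. The other probes of Dnajc3 gave 0.556, 0.385 and 0.72 in males (adjusted p = 0.0307, 0.13 and 0.00853). In females they gave 0.631, 0.537 and 0.625 (adjusted p = 0.0262, 0.0603 and 0.0251). The probe at 0.385 and 0.537 passed in neither sex.

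The other 9 ER chaperones and folding enzymes did not pass in either sex. Creld2 and Sdf2l1, secretory-pathway folding genes known to be induced by ER stress, had male changes of 0.84 ± 0.39 and 0.82 ± 0.38 (adjusted p = 0.154 and 0.146) and female changes of -0.10 and 0.00. Creld2 was at 46.6, 60.8 and 144 in dexamethasone males against 36.2, 56.2 and 34.8 in vehicle males, so 1 animal stood far above the rest. Without that animal, dexamethasone male 3, Creld2 gave 0.36 and Sdf2l1 0.42 in males. Dnajb11, a BiP co-chaperone, gave 0.51 ± 0.20 in males (adjusted p = 0.0968). It was 0.34 without dexamethasone male 3. Dnajb9, another, gave 0.24 ± 0.37 in males, -0.18 without the same animal, and -0.50 ± 0.37 in females. By their brightest probes the calnexin cycle lectins and disulfide isomerases gave log2 changes of -0.05 for Canx, 0.19 for Calr, -0.01 for Pdia3, 0.29 for Pdia4 and 0.19 for Pdia6 in males, and between -0.16 and 0.01 in females. The probes of Pdia6 spanned -0.34 to 1.12 in males and -0.90 to 0.03 in females, and those of Canx -0.05 to 0.35 in males and -0.16 to 0.35 in females, none past the threshold. Of the 8 members with the long ER stress element, Dnajc3 and Hsp90b1 passed in males and Dnajc3 in females. Hspa5, Calr, Canx, Pdia6, Creld2 and Derl3 hold it too and passed in neither sex. A link between the element and these changes was not tested.

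In ER associated degradation, which returns misfolded proteins to the cytosol for destruction, Herpud1 gave the lowest adjusted p of any member in males. Herpud1 was at 115, 134 and 154 in dexamethasone males against 62.5, 73.7 and 72.5 in vehicle males, and at 96.9, 79.5 and 130 in dexamethasone females against 75.3, 64.1 and 57.7 in vehicle females. Neither sex had overlapping groups. The change was 0.94 ± 0.19 in males (adjusted p = 0.00639) and 0.62 ± 0.19 in females (adjusted p = 0.0575). Edem1, a mannosidase-like gene of the same route, gave 0.46 ± 0.23 in males and 0.20 ± 0.23 in females. Derl3 varied too much between animals for a change to be seen (residual SD 0.729, values -0.39 ± 0.52 and 0.51 ± 0.52).

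Among the sensors and factor, Atf6 was at 9.04, 12.5 and 14.9 in dexamethasone males against 6.41, 6.31 and 5.13 in vehicle males, without overlap (1.01 ± 0.26, adjusted p = 0.0179). In females it was at 8.90, 7.04 and 8.90 after dexamethasone and 5.97, 4.21 and 8.43 after vehicle, overlapping (0.47 ± 0.26, adjusted p = 0.269). Ern1 gave 0.06 in males and 0.05 in females. Xbp1, which encodes the factor whose messenger IRE1 splices, was at 8.61, 8.05 and 4.17 in dexamethasone females against 12.4, 11.9 and 13.4 in vehicle females, every treated female below every control. Its change in females was -0.92 ± 0.29 (adjusted p = 0.057), and in males -0.02 ± 0.29. Without dexamethasone female 3, the lowest, the female change was -0.59. The probes do not tell spliced from unspliced Xbp1, and activation of the sensors themselves was not measured.

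**Figure D2:**
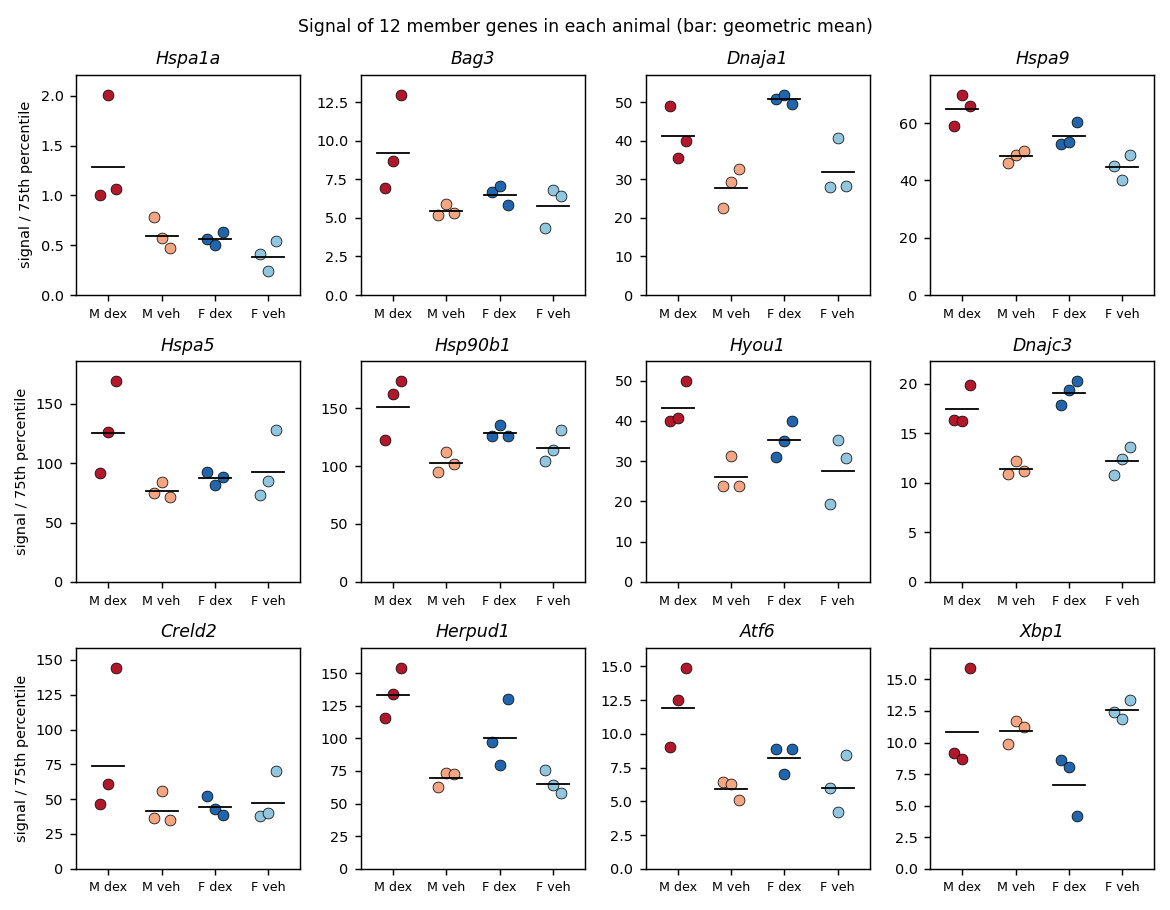
Level of 12 member genes in each animal, as signal divided by the array's 75th percentile on a linear axis from 0, for dexamethasone (dex) and vehicle (veh) males (M) and females (F), 3 animals each with a bar at the geometric mean. Dnaja1, Hspa9, Dnajc3 and Herpud1 separate the treatments in both sexes, and dexamethasone male 3 stands above the others for Creld2.

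Slide 1 held both treatments of both sexes, slide 3 both treatments of males only, and slide 2 both treatments of females only. Vehicle male 3, on slide 2, and vehicle female 3, on slide 3, had no treated animal of their sex on the slide. The differences within a slide kept the direction of every call. For the 8 genes called in males the within-slide log2 differences were, on slides 1 and 3, 1.35 and 0.86 for Hspa1a, 0.73 and 0.69 for Bag3, 0.60 and 0.35 for Hspa9, 0.78 and 0.38 for Hsp90b1, 0.77 and 0.52 for Hyou1, 0.57 and 0.57 for Dnajc3, 1.098 and 0.851 for Herpud1, and 0.97 and 0.88 for Atf6. In females, on slides 1 and 2, Dnaja1 gave 0.35 and 0.83 and Dnajc3 gave 0.65 and 0.82. With slide as a block in the fit 3 members passed in males and 1 in females. The number called in males also depended on single animals: it was 2 without dexamethasone male 2 or without vehicle male 3, 3 without dexamethasone male 3, 4 without vehicle male 1 and 5 without vehicle male 2. In females it was 1 without dexamethasone female 1 or 3, vehicle female 1 or 3, or vehicle male 2. Herpud1 in males and Dnajc3 in both sexes passed with any 1 of the 12 arrays left out.

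Under vehicle 0 of 34 members passed between females and males by limma, where 0.657 percent of all genes were higher and 1.31 percent lower in vehicle females. At an unadjusted p under 0.05 there were 2 members higher and 1 lower, where 5.76 percent of all genes were higher and 7.91 percent lower. After dexamethasone 0 of 34 again passed by limma, beside 3.27 percent of genes higher and 2.53 percent lower in females. At an unadjusted p under 0.05 there were 1 member higher and 4 lower, where 11.2 percent of all genes were higher and 11 percent lower. The median of the members was 0.07 for females over males under vehicle, and -0.22 under dexamethasone, where all genes had -0.05. The values closest to the threshold after dexamethasone were Hsf1 at -0.40 ± 0.11 (adjusted p = 0.0616) and Hspa1a at -1.19 ± 0.34 (adjusted p = 0.0643). Only slide 1 held dexamethasone animals of both sexes, a single animal of each. The other dexamethasone females lay on slide 2 and the other dexamethasone males on slide 3. Sex and slide therefore cannot be fully told apart here, nor in the difference between the sexes in the effect of dexamethasone. Within slide 1 Hsf1 gave -0.579 and Hspa1a -2.014.

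Other genes of the same pathways were counted in the same way, where 10.4 percent of all genes were called higher and 12.1 percent lower in males, and 6.79 and 6.88 percent in females. Of 31 other cytosolic folding genes 5 were higher and 1 lower in dexamethasone males, of 5 other mitochondrial genes 2 were higher, and of 32 other ER genes 5 were higher and 2 lower. In females the counts were 3 higher of 31, 1 higher of 5, and 2 lower of 32. Hspa2, a testis-enriched HSP70, rose by 1.78 ± 0.20 in males and 0.97 ± 0.20 in females. Bag2, an HSP70 co-chaperone, rose by 1.60 ± 0.35 in males. Bag5, another, rose by 0.57 ± 0.14 in females. Dnaja3, a mitochondrial DNAJ protein, rose by 1.38 ± 0.15 in males and 1.198 ± 0.151 in females. Pdia5, an ER disulfide isomerase, fell by 1.35 in males and by 1.67 in females. Between sexes, Hspb6, a small heat shock protein, was lower in vehicle females than in vehicle males (-0.75 ± 0.12, adjusted p = 0.00909) and lower in dexamethasone females than in dexamethasone males (-0.59 ± 0.12, adjusted p = 0.018). Hspa2 was lower in dexamethasone females than in dexamethasone males (-0.83 ± 0.20, adjusted p = 0.0387).

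Animals within a group differed together across the ER genes. After each group mean was taken off, the median correlation over 78 pairs of ER chaperones was 0.599, and 0.59 over the 39 pairs of an ER chaperone and a degradation gene. It was 0.335 over 55 cytosolic pairs, -0.172 over 3 mitochondrial pairs, 0.09 over 143 pairs of a cytosolic and an ER chaperone, and 0.015 over all pairs of genes. These values describe 12 animals, all genes of an animal share its array and scaling, and the values carry no test. Hspa5 and Sdf2l1 had an r of 0.927, Sdf2l1 and Creld2 of 0.924, and Hspb8 and Bag3 of 0.919. Bag3, a cytosolic gene, varied with Hspa5 (r of 0.781), whereas Canx and Herpud1 gave -0.475 and 0.131 with it, and Hspa1a and Dnaja1 gave -0.887 with each other. Dexamethasone male 3 was high for several ER genes, with Sdf2l1 at 24.8 beside 8.16 and 14.2 in the other dexamethasone males, and Dnajb9 at 11.7 beside 4.25 and 5.39. Of the cytosolic genes, Hspb8 and Bag3 were also highest in that animal. Hspb8 was at 42.6 beside 21.9 and 22.8, and Bag3 at 13.0 beside 6.94 and 8.66. Hspb1 marked other animals: it was at 6.56 in vehicle female 2 beside 1.78 and 1.85 in the other vehicle females, and at 1.25 in dexamethasone female 3 beside 2.94 and 4.93.

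**Figure D3:**
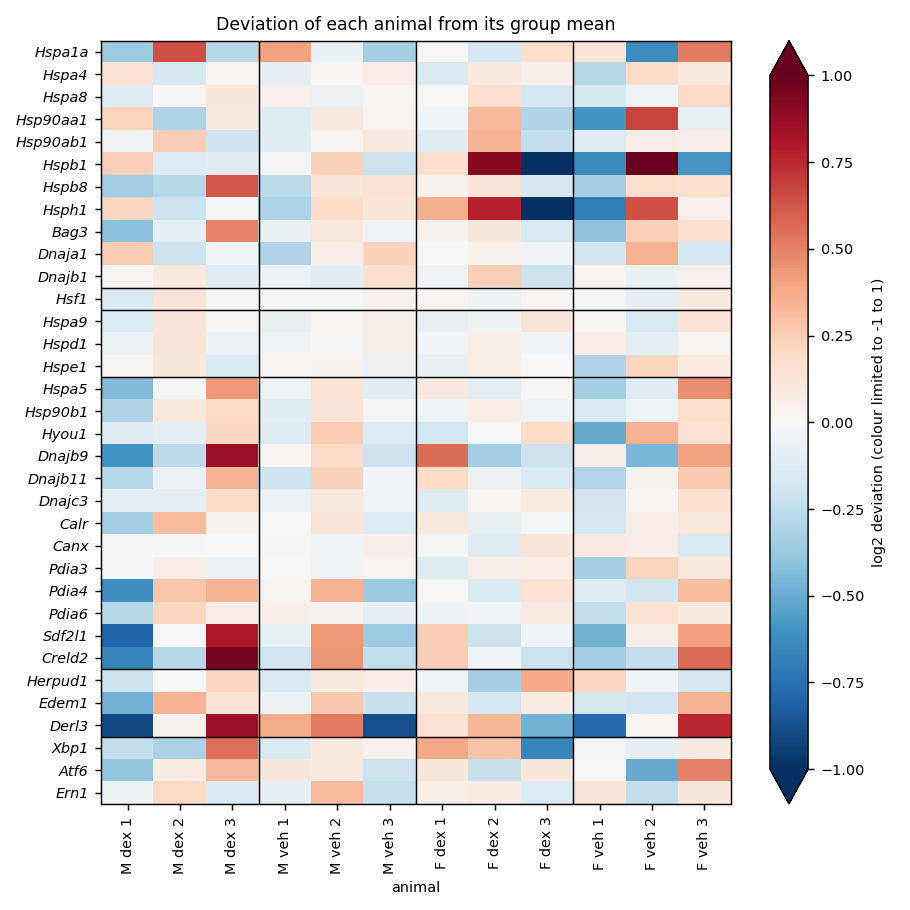
Log2 deviation of each animal (x axis, dexamethasone then vehicle, males then females) from its group mean for 34 genes (y axis, lines between classes), with red above and blue below the mean and colour limited to -1 to 1. The ER block is red in dexamethasone male 3 and blue in dexamethasone male 1, whereas Hspb1 and Hsph1 are extreme in dexamethasone females 2 and 3 and vehicle females 1 and 2.

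**Figure D4:**
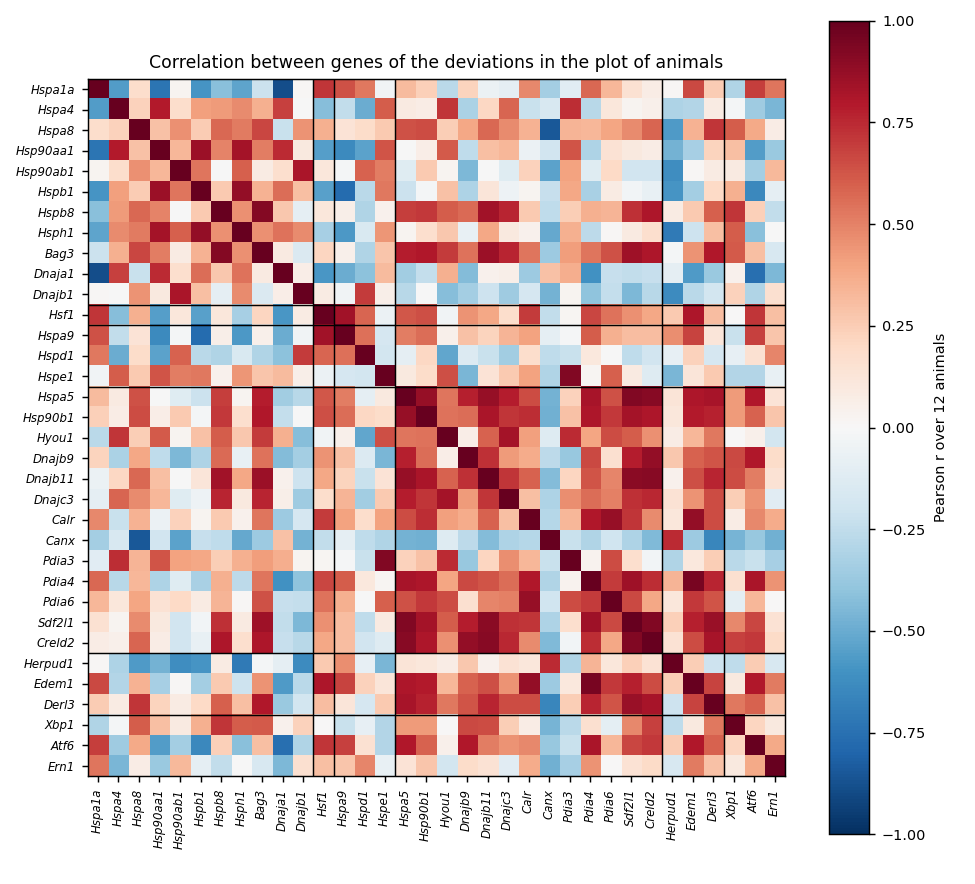
Pearson correlation over 12 animals of the deviations from group means, between 34 genes on both axes, with lines between classes and colour from blue (-1) to red (1). The ER chaperone block, with a median of 0.599 over its 78 pairs, is redder than the cytosolic block, with 0.335 over 55 pairs.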

How the data were processed

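Liver RNA of 12 mice (500 ng each) was measured on single-colour Agilent arrays. The deposited files hold scanner output, with processed signal intensity, mean signal, background and quality flags per spot; per the submitters' processing notes it came from Agilent Feature Extraction 9.5. The deposited series table held the same intensities (0 differing cells).

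Control spots and outlier-flagged spots were dropped, spots of a probe averaged, and log2 intensity scaled by each array's 75th percentile. Probes well above background on all 3 arrays of a group were kept (28840), the brightest probe stood for a gene, and 4 group means were fitted with limma 3.58.1 in R 4.3.3 over 19339 genes, with Benjamini-Hochberg adjustment, a threshold of 0.05 and 8 residual degrees of freedom. Errors are limma SEs. Genes were named through the files' accessions and symbols. Simulated data with known changes were used to test the fit. All members are named; of other pathway genes, at most the 4 with the largest change past the threshold per comparison. The members and lists were chosen with earlier results of these data known. Probe coordinates are the array design's (mm7) and promoters are RefSeq's (GRCm38.p6). Alternatives covered normalization, background correction, filters, probe choice, slide, replicate number and each array left out.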

Additional observations from a re-analysis of the deposited data

How the results depend on the processing

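The direction of each of the 10 member calls was kept by every setting that measured the same probe, whereas their number was not. Other single probes aside, Dnajc3 and Herpud1, of the 8 genes called in males, kept their call under every alternative but one. This was the normexp background correction fitted on all spots. Dnajc3 in females lost its call there and with only the arrays of the groups compared. Another probe of Dnajc3 passed in neither sex. The members called higher in males numbered 4 under quantile normalization, 4 with no filter on dim probes, 5 when the probes of a gene were averaged, 3 with slide as a block and 4 with only the arrays of the groups compared. In females they numbered 1 with no filter, 1 with slide as a block, 0 with only the arrays compared, and 4 (Xbp1 lower among them) when only probes detected on all 12 arrays were kept. No filter also gave 2 members between dexamethasone females and dexamethasone males. The dimmest probe of Hspa1a gave -0.472 in males (adjusted p = 0.447).

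The normexp correction, as planned, gave 0 members in males and 0 in females, and 908, 536, 88, 59 and 0 genes for the male, the female, the vehicle sex, the dexamethasone sex and the interaction comparison, against 4359, 2644, 381, 1123 and 1. That fit failed on 2 arrays: 6 spots of dexamethasone male 1 and 1 spot of dexamethasone female 3 lay far below their local background and lifted the floor of the corrected signal to 411 and 532, against 8.64 to 17.4 on the other arrays, and the median of all genes shifted by 0.264 in males. With spots more than 50 units below their local background left out, chosen after seeing the data, the floor was 8.64 to 10.8 on all arrays, 8 members passed in males, 4 in females (Xbp1 lower among them) and 1 between the sexes after dexamethasone, and 2 genes passed the interaction. In that version 339 genes were higher and 524 lower in dexamethasone females than in dexamethasone males, against 633 and 490.

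Over all genes, no filter gave 2278 for the interaction and 4233 for the dexamethasone sex comparison, slide as a block gave 244 for the dexamethasone sex comparison, and the arrays compared alone gave 1180 for females, 224 for vehicle and 491 for dexamethasone between sexes. The interaction gave 0 genes under the stricter probe filter and 0 with averaged probes. The replicate number did not pair the animals (correlations of deviations from -0.216 to 0.326). With the replicate block 6 members passed in males and 1 in females, and 244 and 703 genes differed between sexes under vehicle and dexamethasone. Leaving out each array in turn gave 2342 to 5026 genes in males, 1504 to 2568 in females, 1 to 32 for the interaction (32 without dexamethasone female 3), 158 to 436 between sexes under vehicle and 455 to 1281 under dexamethasone. The members called were then 2 to 10 in males, 1 to 2 in females and 0 to 1 between sexes after dexamethasone. Which changes passed also depended on each gene's spread between animals: Hspa9 passed in males at 0.42, and Creld2 did not at 0.84.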
